A study of Mus musculus with 12 samples.

Results

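The 10 genes Fos, Fosb, Fosl2, Jun, Junb, Jund, Atf3, Egr1, Klf6 and Ier3 were followed across the livers of 12 mice. They were taken by name from the 24187 genes of the count table, and all 10 were among the 22581 genes with enough counts to be tested. AP-1 is a transcription factor made of a pair of bZIP proteins, a Jun protein with a Fos protein, with another Jun protein or with a relative such as ATF3. Its genes belong to the immediate-early genes, which cells transcribe within minutes of a stress or growth signal through MAP kinases, and many of their messages are short-lived. In the injured or resected liver the class is known as an early part of the response that precedes hepatocyte division, and Jun in particular is needed for normal regeneration.

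Mouse livers were compared after acetaminophen (APAP, paracetamol), whose reactive metabolite kills hepatocytes around the central veins. The 3 Control mice are untreated by their labels, 5 mice received APAP and PBS vehicle, and 4 mice received APAP and hAAM cells, which are human alternatively activated macrophages grown from blood monocytes. The labels give 350 mg/kg APAP, whereas the study presents these data under a severe model with a higher dose, and the dose of the sequenced livers is not stated separately. The methods name C57BL/6J mice in one place and the JOlaHsd substrain in another, aged 10 to 12 weeks, which received cells or vehicle into a vein 16 h after APAP. The methods also describe fasting before APAP or a saline injection, and do not say whether the sequenced Control mice had either. One statement puts the harvest at 32 h after the drug and another at 36 h. No genetic change is named for any group. All 12 livers had Y-linked Ddx3y (3064 to 4281 counts) and few counts of Xist (10 to 149). Each injured group was sampled at a single late time, and the first hours of the immediate-early response were not sampled. Bulk RNA was sequenced, so that fewer cells of a type and less RNA per cell cannot be told apart.

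RefSeq promoter sequences (GRCm38.p6, 250 bases before to 50 bases after a gene's start) were found for 9 of the 10 genes, all but Egr1. Fos, Jun, Atf3 and Klf6 are shown because each holds a form of the cyclic AMP response element (CRE), the sequence that CREB and ATF proteins bind and that Jun and ATF dimers also recognise. The capitals mark the match, and all 4 sequences are read 5′ to 3′ on the strand of the gene. Fos lies at chr12:85473640-85473939 (+), Jun at chr4:95052173-95052472 (-), Atf3 at chr1:191183284-191183583 (-) and Klf6 at chr13:5861239-5861538 (+).
Fos: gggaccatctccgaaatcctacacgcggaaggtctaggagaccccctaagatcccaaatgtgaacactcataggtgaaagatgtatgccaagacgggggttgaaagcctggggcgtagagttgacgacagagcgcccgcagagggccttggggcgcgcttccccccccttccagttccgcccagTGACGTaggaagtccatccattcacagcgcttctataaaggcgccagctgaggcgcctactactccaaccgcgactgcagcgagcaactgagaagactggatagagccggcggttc
Jun: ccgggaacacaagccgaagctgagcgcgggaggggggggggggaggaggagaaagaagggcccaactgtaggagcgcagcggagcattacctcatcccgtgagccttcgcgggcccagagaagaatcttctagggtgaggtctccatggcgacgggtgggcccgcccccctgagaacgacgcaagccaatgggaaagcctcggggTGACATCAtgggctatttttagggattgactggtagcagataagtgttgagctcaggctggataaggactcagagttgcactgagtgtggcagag
Atf3: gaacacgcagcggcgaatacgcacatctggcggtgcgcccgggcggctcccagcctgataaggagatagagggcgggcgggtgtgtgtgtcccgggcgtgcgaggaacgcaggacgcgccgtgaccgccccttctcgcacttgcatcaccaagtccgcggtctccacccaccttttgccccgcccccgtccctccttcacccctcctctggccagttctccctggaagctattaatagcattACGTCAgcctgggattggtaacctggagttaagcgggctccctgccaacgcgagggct
Klf6: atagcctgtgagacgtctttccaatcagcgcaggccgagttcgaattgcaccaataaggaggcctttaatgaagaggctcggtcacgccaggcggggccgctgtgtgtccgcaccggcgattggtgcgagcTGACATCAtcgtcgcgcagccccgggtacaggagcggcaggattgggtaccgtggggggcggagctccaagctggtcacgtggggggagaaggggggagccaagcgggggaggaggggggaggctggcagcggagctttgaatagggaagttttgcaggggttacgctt
The half-element TGACGT was present in Fos, at -66 to -61 from the start, and in Atf3 on the opposite strand, at -8 to -3 where the gene's strand reads ACGTCA. The CRE with a free middle base, TGACNTCA, was present in Jun at -45 to -38 and in Klf6 at -119 to -112. On either strand, TGACGT occurred in 7.51% and TGACNTCA in 8.83% of all 32851 promoters of this length, and a full TGACGTCA contains both. The full CRE TGACGTCA (1.79% of promoters), the AP-1 element TGANTCA (7.81%), the STAT element TTCNNNGAA (8.3%) and the CArG box bound by SRF (1.63%) had no match in these windows of the 9 genes. The elements were chosen after the sequences were seen. The Atf3 window begins at an internal start of the gene, whose longest annotated form starts upstream of it.

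Total counts were 60870399 to 74056505 in Control, 50859599 to 61826952 in APAP-vehicle and 47391650 to 55379420 in APAP-hAAM livers. Levels are CPM (the gene's counts relative to the library's total) scaled with edgeR's TMM factors, and fold changes are edgeR's log2 values with their standard errors (SE). The spread of hAAM replicate 4 against vehicle replicate 3 was 1.19 times counting noise, against 2.36 to 4.97 times in the other 35 pairs of APAP livers, although the labels put these libraries in different groups. Recruited monocyte and macrophage markers (5 of 5 detected in every liver) summed to 57.2 to 68.9 CPM in Control, 115 to 228 in APAP-vehicle and 114.5 to 282 in APAP-hAAM livers, and neutrophil markers (5 of 5) to 6.97 to 28.1, 10.6 to 44.3 and 11.5 to 40.6 CPM. Red cell markers (5 of 5) summed to medians of 209, 437 and 670 CPM in Control, vehicle and hAAM livers (highest 2025, in vehicle replicate 5), and biliary markers (5 of 5) to 65.4, 116 and 146 CPM. In the red cell list Alas2 went the other way, with 4103 to 4626 counts in Control and 1122 to 2277 in injured livers. Hba-a1 had 1093 to 3717 and 4005 to 56842, and the other globins also rose. In the biliary list Spp1 had 1148 to 1727 counts in Control and 1622 to 17104 in injured livers. Spp1 is also among the genes with known AP-1 sites below. Epcam had 35 to 51 and 36 to 57, and Krt19, Krt7 and Sox9 overlapped with Control. Hepatocyte markers (6 of 6) summed to 57012 to 99510 CPM over the 12 livers. The part of cell composition in the results below was not tested.

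Per kilobase of exon, Junb was the most abundant of the 10 messages in uninjured liver, with a mean of 65.6 ± 54.9 CPM per kb (SD, n = 3). Egr1, Jun and Jund followed at means of 20.9, 16.7 and 14.1, then Fosl2 at 6.80, Ier3 at 5.87, Fos at 3.63, Klf6 at 3.28, Atf3 at 1.62 and Fosb at 0.0877 CPM per kb. Between neighbours in this order the ranges of the 3 livers overlapped, except from Jund (13.6 to 14.4) down to Fosl2 (3.95 to 12.1) and from Atf3 (0.917 to 2.76) down to Fosb (0.0202 to 0.195). Several of these means rested on Control replicate 1. Without it Ier3 had a mean of 0.895 CPM per kb and came after Atf3 (1.05), Junb still led at 34.0, Fosl2 was at 4.18 and Fosb at 0.0338, and Jund (14.3) came before Egr1 (14.1) and Jun (11.7). After APAP and vehicle the leading messages were Egr1 (22.3 ± 12.2, SD, n = 5) and Junb (20.5 ± 6.21), and Klf6, at 12.5 ± 3.40 CPM per kb, came next after Jun and Jund. In APAP-hAAM livers Egr1 (34.9 ± 17.3, SD, n = 4), Junb (27.8 ± 13.6), Jun (27.8 ± 15.6) and Fos (25.2 ± 29.9) led, and their ranges overlapped one another. Without hAAM replicate 3 the mean of Fos was 10.4 CPM per kb, below that of Jund (11.9), and Egr1 (28.7), Junb (21.5) and Jun (21.2) kept their order.

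**Figure D1:**
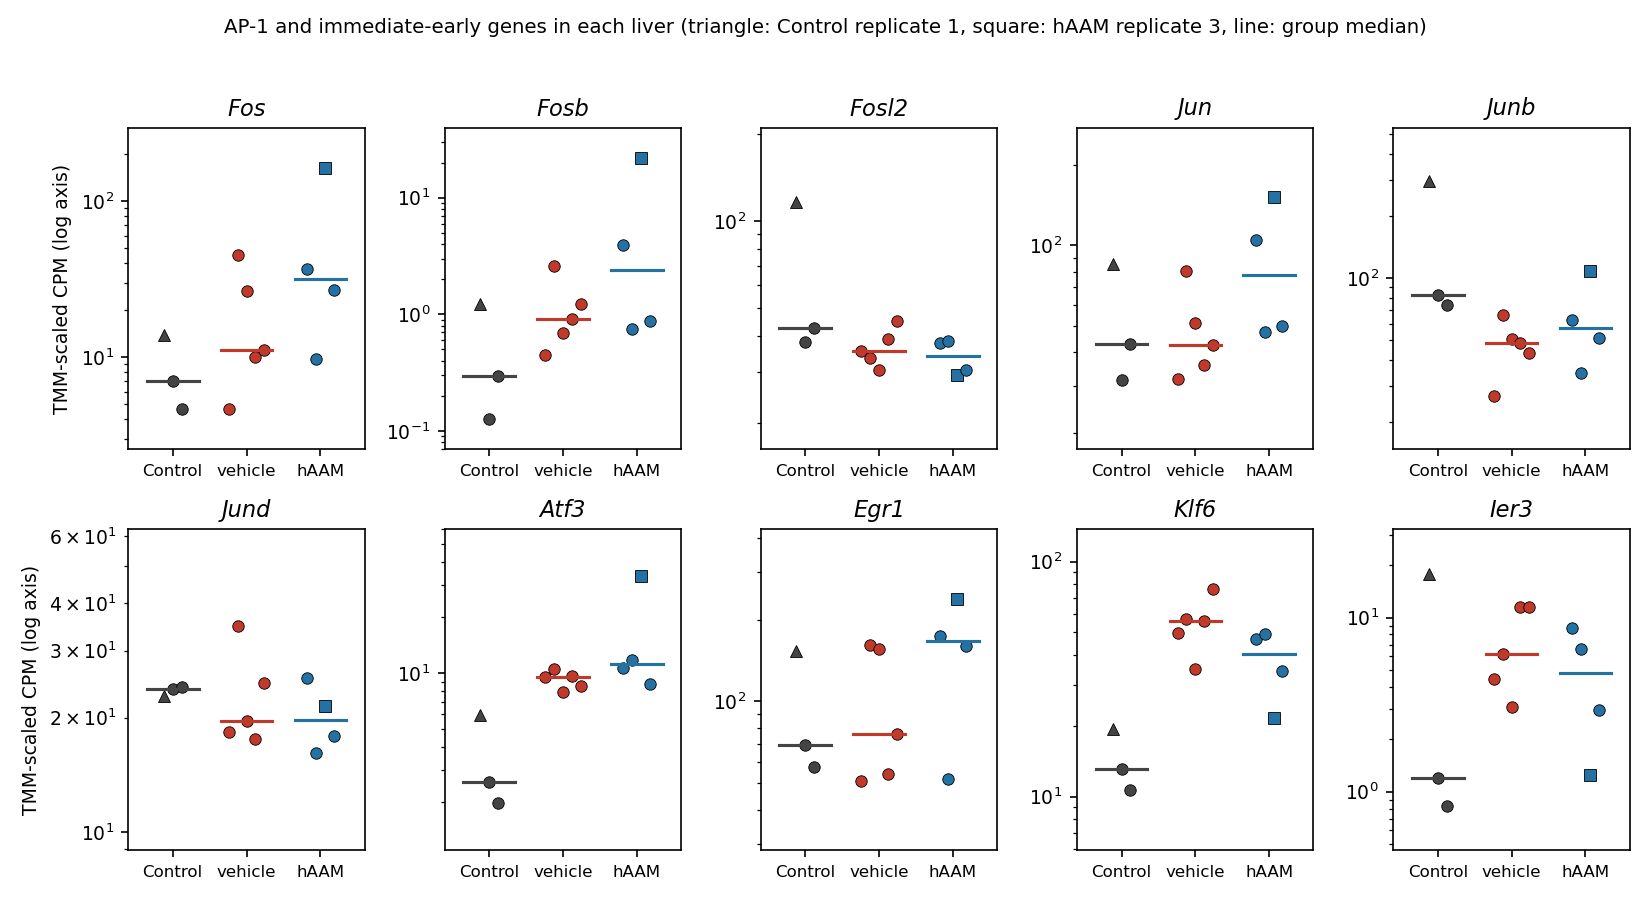
TMM-scaled CPM of each gene (log axis) in 3 Control, 5 APAP-vehicle and 4 APAP-hAAM livers, one point per liver, with a line at the group median. Klf6 and Atf3 are the genes whose APAP livers all sit above the Control livers, while Control replicate 1 (triangle) leads for Fosl2, Junb and Ier3 and hAAM replicate 3 (square) for Fos, Fosb, Jun, Atf3 and Egr1.

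Klf6 rose in both injured groups. The gene (chr13:5861482-5870394, + strand, GRCm38) encodes a zinc-finger transcription factor known as an early-response gene of the liver. Its level was 19.5, 13.1 and 10.6 CPM in Control livers 1 to 3, then 49.5, 56.8, 34.9, 56.1 and 76.3 CPM in APAP-vehicle livers 1 to 5 and 46.9, 49.0, 21.6 and 34.3 CPM in APAP-hAAM livers 1 to 4. Every injured liver lay above every Control liver, with hAAM replicate 3 closest to the Control range. The level rose 3.80-fold with vehicle (log2 1.93 ± 0.31 SE, edgeR FDR 0.00135) and 2.63-fold with hAAMs (1.40 ± 0.32, FDR 0.0109). Leaving out each liver in turn kept the call in 12 of 12 fits with vehicle and 11 of 12 with hAAMs, where it was lost without Control replicate 3 (FDR 0.051).

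Atf3 (chr1:191170296-191218039, -), a stress-induced bZIP protein of the ATF family that pairs with Jun proteins, was also above the Control range in every injured liver. Control livers 1 to 3 held 5.95, 2.56 and 1.98 CPM, APAP-vehicle livers 9.46, 10.5, 7.94, 9.68 and 8.48 CPM, and APAP-hAAM livers 10.7, 11.8, 33.4 and 8.76 CPM. The 5 vehicle values were close together, and hAAM replicate 3 stood far above the other 3 hAAM values. The rise was 2.64-fold with vehicle (log2 1.40 ± 0.45, edgeR FDR 0.0362) and 4.63-fold with hAAMs (2.21 ± 0.48, FDR 0.00918). The vehicle call held in 6 of 12 fits that each left out a liver and was lost without Control replicate 2 or 3 or vehicle replicate 1, 2, 4 or 5 (highest FDR 0.135). With hAAMs it held in 12 of 12, and without hAAM replicate 3 the log2 difference was 1.58 (FDR 0.00683). The differences were 2.02 and 2.83 without Control replicate 1.

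Fos (chr12:85473890-85477273, +) and Fosb (chr7:19302696-19310051, -), whose proteins need a Jun partner to bind DNA, had higher means in both injured groups but overlapped with Control. Fos measured 14.0, 7.03 and 4.66 CPM in Control, 4.68, 45.3, 26.8, 10.1 and 11.2 CPM in APAP-vehicle and 36.7, 9.70, 163 and 27.1 CPM in APAP-hAAM livers. Vehicle replicate 1 was at the bottom of the Control range while hAAM replicate 3 was far above all other livers. The log2 difference from Control was 1.20 ± 0.89 with vehicle (edgeR FDR 0.333) and 2.79 ± 0.97 with hAAMs (FDR 0.0611), and the latter was 1.52 (FDR 0.169) without hAAM replicate 3 and 3.15 (FDR 0.0425) without hAAM replicate 2. The vehicle value was 0.62 without vehicle replicate 2.

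Fosb was the scarcest message, at 1.22, 0.126 and 0.296 CPM in Control, 0.447, 2.58, 0.697, 0.902 and 1.21 CPM in APAP-vehicle and 3.94, 0.741, 22.0 and 0.877 CPM in APAP-hAAM livers. These rest on 8 to 148 counts in the Control and vehicle livers and 40 to 1138 in the hAAM livers. As with Fos, the highest value of each group came from one liver, here Control replicate 1, vehicle replicate 2 and hAAM replicate 3. The log2 difference from Control was 1.11 ± 1.15 with vehicle (edgeR FDR 0.496) and 3.67 ± 1.23 with hAAMs (FDR 0.0535). The vehicle value was 2.496 without Control replicate 1 and 0.60 without vehicle replicate 2. The hAAM value was past the threshold without hAAM replicate 4 and vehicle replicate 3 (4.05, FDR 0.04), without hAAM replicate 4 alone (4.04, FDR 0.0333) and without hAAM replicate 2 (4.05, FDR 0.0399). It was 1.77 (FDR 0.167) without hAAM replicate 3 and 5.06 (FDR 0.0587) without Control replicate 1. DESeq2 called Fos (FDR 0.0184) and Fosb (FDR 0.00977) in the hAAM comparison.

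Fosl2 (chr5:32135801-32157842, +) encodes FRA2, a Fos-family protein that turns over more slowly than FOS. Its level was 117, 38.2 and 42.7 CPM in Control, 35.5, 33.6, 30.5, 39.2 and 45.2 CPM in APAP-vehicle and 37.8, 38.4, 29.2 and 30.6 CPM in APAP-hAAM livers. One Control liver stood well above the other 11 livers, which spanned 29.2 to 45.2 CPM. The level fell by 0.84 ± 0.29 on the log2 scale with vehicle (edgeR FDR 0.0492) and 0.95 ± 0.31 with hAAMs (FDR 0.0485). Without Control replicate 1 the differences were -0.13 (FDR 0.554) and -0.25 (FDR 0.311), and each call held in 2 of the 12 fits that left out a liver, those without Control replicate 2 or 3. Neither call held without hAAM replicate 4 and vehicle replicate 3, in edgeR (FDR 0.103 and 0.104) or in DESeq2 (FDR 0.0644 and 0.0554).

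Junb (chr8:84974484-84978718, -), which activates transcription less strongly than Jun on many AP-1 sites, fell with vehicle. It measured 297, 82.7 and 73.6 CPM in Control, 26.7, 66.3, 50.8, 48.5 and 43.3 CPM in APAP-vehicle and 62.8, 34.7, 108 and 51.1 CPM in APAP-hAAM livers. All 5 vehicle livers were below all Control livers, and among the hAAM livers only replicate 3 reached into the Control range. The level fell 3.20-fold with vehicle (log2 -1.68 ± 0.46, edgeR FDR 0.017). With hAAMs the log2 difference was -1.24 ± 0.49 (FDR 0.0913), past the threshold without hAAM replicate 3 (-1.61, FDR 0.0372) and in DESeq2 (FDR 0.0434). The DESeq2 call was lost without hAAM replicate 4 and vehicle replicate 3 (-1.16, FDR 0.223). Control replicate 1 set the size of both: without it the differences were -0.73 (FDR 0.18) and -0.28 (FDR 0.665).

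Jun (chr4:95049034-95052222, -), the AP-1 subunit that JNK phosphorylates, overlapped between all groups. Control livers held 85.2, 31.5 and 43.0 CPM, APAP-vehicle livers 31.7, 80.5, 51.4, 35.97 and 42.6 CPM and APAP-hAAM livers 105, 47.5, 152 and 49.96 CPM. The vehicle livers covered nearly the same range as the Control livers, and 2 of the 4 hAAM livers were above every other liver. The log2 difference from Control was -0.14 ± 0.44 with vehicle (edgeR FDR 0.84) and 0.74 ± 0.46 with hAAMs (FDR 0.283). The sign of the vehicle value turned without Control replicate 1 (0.38, FDR 0.593) and with scaling by library size alone (0.20). The hAAM value was 1.25 without Control replicate 1, 0.47 without Control replicate 2 and 0.34 without hAAM replicate 3.

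Jund (chr8:70698949-70700616, +), the Jun-family member usually described as constitutive, was called in neither comparison with Control. Its level was 22.7, 23.8 and 24.0 CPM in Control, 18.3, 34.8, 19.6, 17.6 and 24.7 CPM in APAP-vehicle and 25.35, 16.1, 21.5 and 17.8 CPM in APAP-hAAM livers. The 3 Control livers lay within 1.06-fold of one another, whereas the vehicle livers spanned 1.98-fold. The log2 difference was -0.03 ± 0.21 with vehicle (edgeR FDR 0.922, 95% interval -0.49 to 0.43) and -0.22 ± 0.22 with hAAMs (FDR 0.512, interval -0.70 to 0.26).

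Egr1 (chr18:34859823-34864984, +), a zinc-finger factor induced through the serum response factor, was abundant and variable everywhere. It measured 154, 69.2 and 57.6 CPM in Control, 51.1, 162, 156, 54.2 and 76.0 CPM in APAP-vehicle and 174.5, 51.6, 239 and 160.5 CPM in APAP-hAAM livers. In each injured group some livers lay near the lower Control values and others near or above Control replicate 1. The log2 difference from Control was 0.09 ± 0.52 with vehicle (edgeR FDR 0.911) and 0.74 ± 0.55 with hAAMs (FDR 0.365). The vehicle value was -0.12 without hAAM replicate 4 and vehicle replicate 3, which were alike at 160.5 and 156 CPM, and 0.66 without Control replicate 1. The hAAM value was 1.30 without Control replicate 1, 0.49 without Control replicate 3 and 0.46 without hAAM replicate 3.

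Ier3 (chr17:35821684-35822923, +) encodes a short-lived protein that restrains cell death and prolongs ERK signalling. One Control liver held 17.9 CPM and the others 1.20 and 0.83 CPM, against 4.44, 6.21, 3.06, 11.5 and 11.5 CPM in APAP-vehicle and 8.70, 6.61, 1.24 and 2.95 CPM in APAP-hAAM livers. Control replicate 1 was thus the highest of the 12 livers, while the other Control livers were the lowest, with hAAM replicate 3 just above them. With all livers the log2 difference was 0.15 ± 0.88 with vehicle (edgeR FDR 0.914) and -0.44 ± 0.92 with hAAMs (FDR 0.77). Without Control replicate 1 the differences were 2.85 (FDR 0.0282) and 2.26 (FDR 0.0795), and without it and hAAM replicate 3 they were 2.86 (FDR 0.0117) and 2.58 (FDR 0.0266), a setting added after the data were seen.

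**Figure D2:**
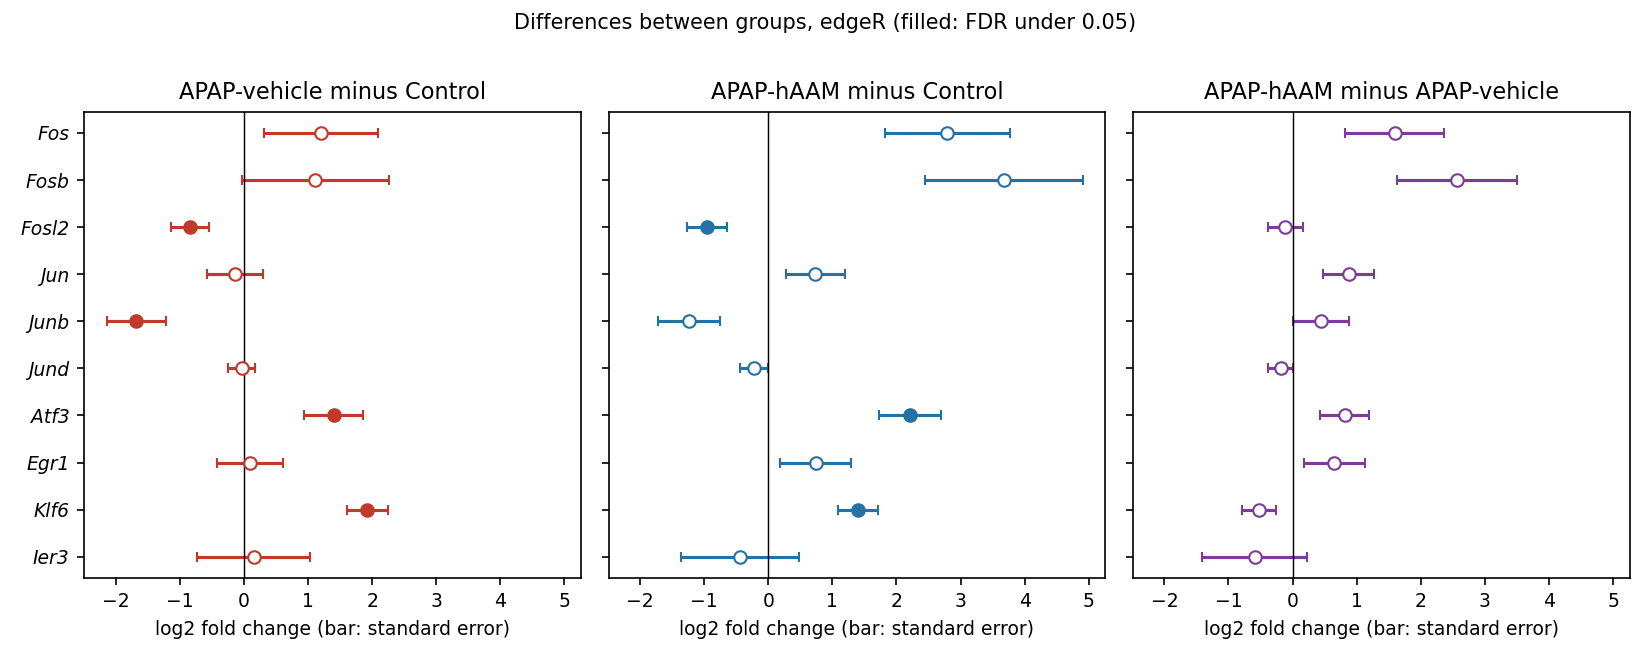
Log2 fold change of each gene with its standard error in the 3 comparisons, filled where the edgeR FDR was under 0.05. Klf6 and Atf3 are filled on the right of 0 and Fosl2 on the left in both comparisons with Control, Junb is filled with vehicle only, and nothing is filled between hAAM and vehicle.

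In total, 4 of the 10 genes passed the FDR threshold of 0.05 between APAP-vehicle and Control livers, 2 higher (Klf6 and Atf3) and 2 lower (Junb and Fosl2). Of all genes tested 29.8% did so, 15% higher and 14.8% lower. With hAAMs against the same Control livers 3 of 10 passed, 2 higher (Atf3 and Klf6) and 1 lower (Fosl2), where the share of all genes was 20.7%, 10.7% higher and 9.96% lower. DESeq2 called 4 with vehicle (34% of all genes) and 6 with hAAMs (25.8%), or 3 and 4 without hAAM replicate 4 and vehicle replicate 3 (34.6% and 25.4%). With library size as the only scaling edgeR had 2 higher and 1 lower with vehicle (43.2% of all genes called), and 4 higher and 0 lower with hAAMs (32.5%). The median log2 difference of the 10 was 0.12 with vehicle and 0.74 with hAAMs, where all genes had 0.01 and 0.02. These medians were 1.20 and 1.49 without Control replicate 1, -0.055 and 0.52 without Control replicate 2 and -0.089 and 0.55 without Control replicate 3. The hAAM median was 0.40 without hAAM replicate 3, and the vehicle median ranged from 0.031 to 0.28 without single vehicle livers. Klf6 and Atf3 lay above Control without overlap in both comparisons (17.5% and 14.3% of all genes), and Junb lay below without overlap with vehicle (17.3%). In either direction 3 and 2 of the 10 were without overlap, against 34.8% and 28.5% of all genes (14.2% of them lower with hAAMs). The 2 comparisons share their Control livers and are not independent of each other. Without Control replicate 1, which was the highest of 12 livers for 3 of the 10 genes, 3 and 2 genes passed, against 21.5% and 13.1% of all genes. They were Klf6, Atf3 and Ier3 with vehicle, and Klf6 and Atf3 with hAAMs.

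The direct comparison of hAAM-treated with vehicle-treated livers asks whether the cells changed these genes within the injury. None of the 10 passed the edgeR threshold (FDR 0.967 to 0.991), and 0% of all genes did. At an unadjusted p under 0.05 edgeR had 2 of the 10 (5.02% of all genes), and DESeq2 called none of the 10 and 1 gene of all (0.00443%). None of the 10 was without overlap between these groups, against 1.4% of all genes (0.709% higher and 0.691% lower). The pair were Fosb, at a log2 difference of 2.56 (edgeR 95% interval 0.52 to 4.598), and Jun, at 0.87 (0.0028 to 1.74), both higher with hAAMs. For Jun all 4 hAAM livers lay above the vehicle median, and for Klf6 all 4 lay below it, with a difference of -0.53 (interval -1.11 to 0.05).

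Most of these values depended on hAAM replicate 3. Fos differed by 1.60 (interval -0.08 to 3.27) with it and by 0.32 without it, Fosb by 0.66 without it, Atf3 by 0.81 with and 0.18 without it, and Jun by 0.48 without it. Klf6 differed by -0.33 without it, Egr1 by 0.65 with and 0.37 without it, Junb by 0.44 with and 0.072 without it, and Ier3 by -0.59 with and -0.28 without it. The intervals of Egr1 (-0.38 to 1.68), Junb (-0.49 to 1.38), Ier3 (-2.38 to 1.19), Fosl2 (-0.72 to 0.49) and Jund (-0.61 to 0.24) all span 0, and those of Ier3, Egr1 and Junb include a 2-fold change (1 on the log2 scale). None of the 10 was called without hAAM replicate 4 and vehicle replicate 3 in either tool, where DESeq2 called 88 genes of all.

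The composition of AP-1 is independent of library scaling. The levels per kb of Fos, Fosb, Fosl2, Jun, Junb and Jund were summed in each liver and each subunit was expressed as a share of the sum. In Control livers the 3 Fos-family messages together made up 9.70%, 10.4% and 9.71%. They made up 15.0%, 23.6%, 22.7%, 16.5% and 17.0% in APAP-vehicle livers and 21.1%, 17.2%, 41.4% and 23.4% in APAP-hAAM livers. The Control livers, among them replicate 1 with its high Junb, were alike to within 1 percentage point, and every injured liver had a higher share. A share also rises where other messages fall, so it is not a level. Vehicle replicate 1 had 3.67 CPM per kb of Fosl2, below every Control liver (3.95 to 12.1). Its Fos (1.99) and Fosb (0.072) lay within the Control ranges, and its Junb was 11.6 against 31.99 to 128.9. In some other injured livers Fos was above the Control range, up to 69.4 in hAAM replicate 3.

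Within the Jun family Junb had a smaller and Jun a larger share in every injured liver than in any Control liver. Junb took 68.8%, 53.6% and 48.2% of the sum in Control, 30.3%, 29.4%, 34.2%, 41.0% and 33.3% in APAP-vehicle and 28.5%, 31.5%, 25.5% and 35.03% in APAP-hAAM livers. Jun took 14.25% to 20.3% in Control, 22.0% to 26.0% in APAP-vehicle and 24.7% to 34.5% in APAP-hAAM livers. The mean level of Jun did not rise with vehicle (48.4 CPM against 53.2 in Control), where that of Junb was 47.1 against 151 CPM. The shares of Fosl2 and Jund overlapped between Control and injured livers, and no subunit separated hAAM from vehicle livers. When shares were taken of reads, without dividing by exon length, the same shares were without overlap, and the Fos-family mean was 24.9% in Control, 33.0% in APAP-vehicle and 34.6% in APAP-hAAM livers. The shares carry no test, and message shares do not measure the proteins.

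**Figure D3:**
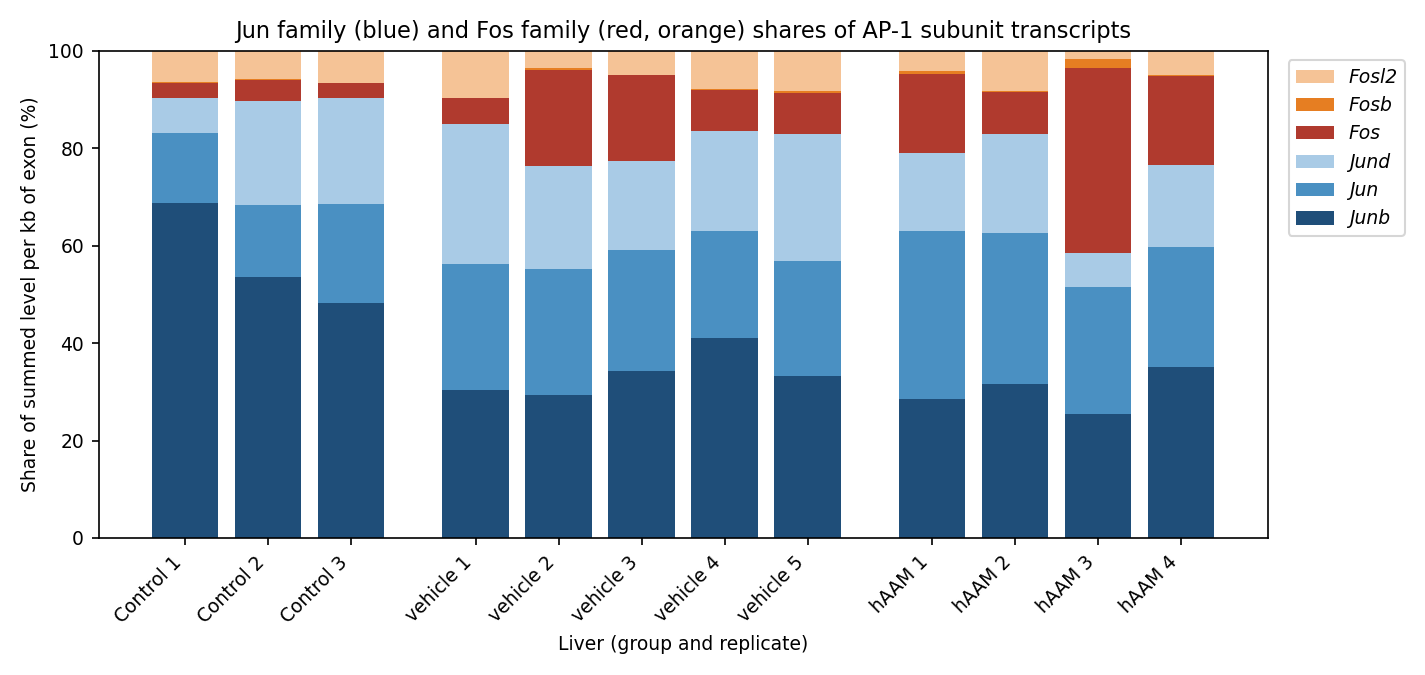
Share (%) of the 6 AP-1 subunit messages in each liver, from levels per kb of exon, with the Jun family in blue and the Fos family in red and orange. Junb takes 48.2% or more of every Control bar and 41.0% or less of every injured one, and the Fos share is largest in hAAM replicate 3 at 37.9%.

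Variation between livers of one group was a feature of most of these genes. The pooled within-group SD of log2 CPM was 1.60 for Fosb, 1.45 for Ier3 and 1.345 for Fos, where 99.9%, 99.8% and 99.6% of all genes had a smaller one and the median gene had 0.27. Egr1 (0.852), Junb (0.730), Jun (0.684) and Atf3 (0.640) were above 91% or more of genes. Klf6 (0.465), Fosl2 (0.458) and Jund (0.320) varied less, above 78.3%, 77.4% and 58.4% of genes. The pooled value did not hold in each group. Atf3 had 0.158 in the vehicle group, where 35.2% of genes had a smaller SD, against 0.822 in Control and 0.863 in the hAAM group. Fosl2 had 0.887 in Control, where replicate 1 stood apart, against 0.217 and 0.204 in the vehicle and hAAM groups.

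Individual livers led or trailed for several genes at once. hAAM replicate 3 was the highest of the 9 injured livers for 6 of the 10 genes (Fos, Fosb, Jun, Junb, Atf3 and Egr1) and the lowest for Klf6, Ier3 and Fosl2. It was the highest injured liver for 20.4% and the lowest for 20.3% of all genes tested. Vehicle replicate 1 was the lowest injured liver for 5 of the 10 (Fos, Fosb, Jun, Junb and Egr1), against 9.33% of all genes. Control replicate 1 was the highest of the 12 livers for Fosl2, Junb and Ier3, and for 15.4% of all genes. Its neutrophil marker sum was 28.1 CPM against 10.6 and 6.97 CPM in the other Control livers, and that of hAAM replicate 3 was 12.2 CPM. hAAM replicate 3 had the highest sums of the 12 livers for hepatocyte (99510 CPM), Kupffer cell (276, next 272) and T and NK cell markers (2.46, next 1.61). Its biliary sum of 63.8 CPM was the lowest of the injured livers, beside 64.1 and 64.5 in vehicle replicate 3 and hAAM replicate 4, and its red cell sum was 733 CPM. The part of those cells in these patterns was not tested.

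**Figure D4:**
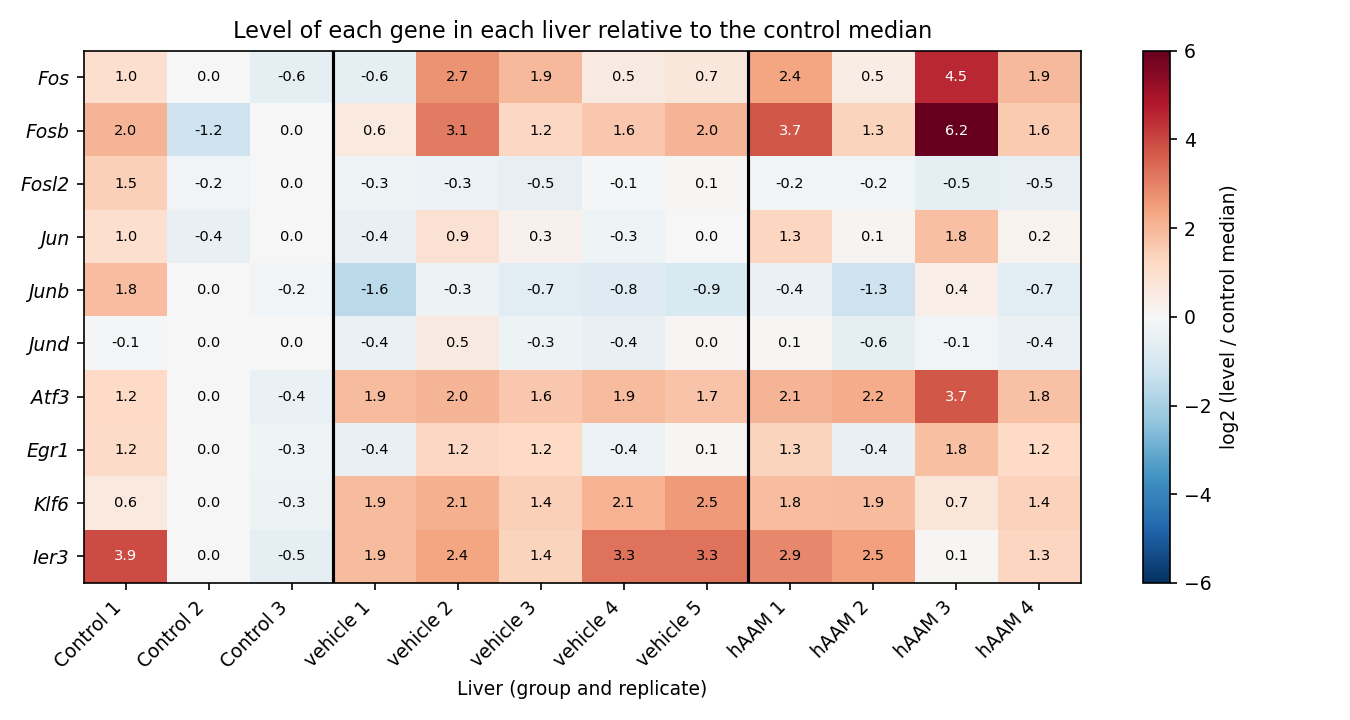
Log2 ratio of each gene's CPM in each liver (columns) to the Control median (rows are genes, red above and blue below). Klf6 and Atf3 are red in all 9 injured livers, hAAM replicate 3 is darkest for Fosb (6.2) and Fos (4.5) and near 0 for Ier3 (0.1), and Control replicate 1 is red for Ier3 (3.9) and Junb (1.8).

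The genes around AP-1 were taken from 5 lists of 74 genes in all, every one tested. Between APAP-vehicle and Control livers 22 passed the edgeR threshold, 19 higher and 3 lower, and with hAAMs 16 passed, 15 higher and 1 lower. These are 29.7% and 21.6% of the lists, beside 29.8% and 20.7% of all genes. Of all genes 15% were higher and 14.8% lower with vehicle, and 10.7% higher and 9.96% lower with hAAMs. With library size as the only scaling the splits were 36 higher and 1 lower with vehicle, and 28 higher and 0 lower with hAAMs. These are 50% and 37.8% of the lists, beside 43.2% and 32.5% of all genes. Between hAAM and vehicle livers none passed (edgeR; 4, or 5.41%, at an unadjusted p under 0.05, beside 5.02% of all genes, and 0 by DESeq2).

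Among 10 dimer partners and inhibitors 1 passed in each comparison (10%, beside 29.8% and 20.7% of all genes). It was Fosl1, which encodes FRA1, a Fos-family protein that is itself switched on by AP-1. It had 6, 1 and 0 counts in Control livers, 55, 61, 35, 97 and 118 in APAP-vehicle and 39, 35, 4 and 27 in APAP-hAAM livers. hAAM replicate 3 alone reached the Control range. The log2 rise was 4.73 ± 0.81 with vehicle (edgeR FDR 0.00171) and 3.48 ± 0.87 with hAAMs (FDR 0.0161), both on very low Control counts. Without Control replicate 1 the fitted values were 6.76 and 5.51, which then rested on 1 Control count, and the hAAM call was lost without Control replicate 2 or 3 (highest FDR 0.0603). Between hAAM and vehicle livers Fosl1 differed by -1.25 ± 0.51 (FDR 0.967).

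Of 13 upstream kinases and transcription factors 4 passed with vehicle and 3 with hAAMs (30.8% and 23.1%, near the shares of all genes), those named here by small amounts. Mapk3, which encodes the kinase ERK1, rose by 0.70 ± 0.16 and 0.63 ± 0.17 (edgeR FDR 0.0072 and 0.0204), the latter call being lost without Control replicate 2 or 3 or hAAM replicate 1 or 2. Elk3, a partner of SRF, rose by 0.60 ± 0.19 and 0.60 ± 0.19 (FDR 0.0294 and 0.0436), and its calls held in 8 and 4 of the 12 fits that left out a liver. The vehicle call was lost without Control replicate 1 or 3 or vehicle replicate 4 or 5, and the hAAM call was kept only without vehicle replicate 3 or 4 or hAAM replicate 3 or 4. Mapk14, the p38 alpha kinase, fell by 0.38 ± 0.11 with vehicle (FDR 0.0256), a call lost without Control replicate 1 or 3, and the hAAM value was -0.32 (FDR 0.0737). The transcription factor Creb1 had the smallest p of this list between hAAM and vehicle livers, at 0.14 ± 0.07 (FDR 0.967).

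The 27 other immediate-early genes had 7 higher and 1 lower with vehicle and 5 higher and none lower with hAAMs. In all 29.6% and 18.5% of the list passed, near the 29.8% and 20.7% of all genes, of which 15% and 10.7% were higher and 14.8% and 9.96% lower. Ccn2 and Ccn1, secreted matrix proteins that respond to YAP and SRF, rose by 2.76 ± 0.44 and 2.15 ± 0.46 with vehicle (edgeR FDR 0.0012 and 0.00534) and by 2.58 ± 0.45 and 1.74 ± 0.47 with hAAMs (FDR 0.00327 and 0.0224). Myc, a driver of growth and ribosome synthesis, rose by 1.52 ± 0.36 and 1.41 ± 0.37 (FDR 0.00834 and 0.0194). The hAAM call of Ccn1 was lost without Control replicate 1 or 2 or hAAM replicate 1 (highest FDR 0.0763) and that of Myc without Control replicate 2 or 3 or hAAM replicate 2 (0.0715). Ccn1 was 2.91 and 2.503 without Control replicate 3, and Myc 2.16 and 2.05 without Control replicate 1. Nr4a1, an orphan nuclear receptor, had the smallest p of its list between hAAM and vehicle livers (2.57 ± 0.93, FDR 0.967), with 9.72, 3.72, 117 and 5.94 CPM in hAAM livers 1 to 4 against 3.79 to 8.15 CPM with vehicle. Outside hAAM replicate 3 its hAAM and vehicle values overlapped.

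Feedback inhibitors of MAP kinase signalling numbered 13, of which 3 rose with vehicle and 1 with hAAMs. These are 23.1% and 7.69% of the list, beside 15% and 10.7% of all genes that were higher. Dusp4, a nuclear MAP kinase phosphatase, rose by 2.29 ± 0.30 and 1.92 ± 0.30 (edgeR FDR 0.000409 and 0.00218). Spry2 and Spry1, inhibitors of receptor tyrosine kinase signalling, rose by 0.75 ± 0.24 and 0.52 ± 0.16 with vehicle (FDR 0.0315 and 0.0251). Both calls were lost without Control replicate 1, that of Spry2 also without Control replicate 2 or 3 or vehicle replicate 4 or 5, and with hAAMs their differences were 0.57 (FDR 0.119) and 0.46 (FDR 0.0664). Dusp10, a phosphatase of JNK and p38, differed by -0.59 ± 0.25 between hAAM and vehicle livers (FDR 0.967).

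Genes with known AP-1 sites in their promoters, 11 in all, had 6 higher with vehicle and 6 with hAAMs (54.5% of the list in each, beside 15% and 10.7% of all genes that were higher), and the list medians were 1.96 and 2.15 on the log2 scale where those of all genes were 0.01 and 0.02. Timp1, Plau, Plaur, Mmp3, Cd44 and Vim passed in both. The list was chosen with earlier results of these data known, so its share beside all genes is not an independent test. Timp1, an inhibitor of matrix metalloproteinases, rose by 3.96 ± 0.89 and 3.91 ± 0.90 (edgeR FDR 0.00654 and 0.0117), Mmp3, the metalloproteinase stromelysin, by 3.89 ± 0.80 and 2.68 ± 0.80 (FDR 0.00423 and 0.0348), and Plau, the urokinase that activates plasmin, by 2.99 ± 0.51 and 3.08 ± 0.52 (FDR 0.00164 and 0.00298). The hAAM call of Mmp3 was lost without Control replicate 2 or 3 or hAAM replicate 1 or 2. Timp1 was 5.78 and 5.73 and Mmp3 4.57 and 3.36 without Control replicate 1. Several of these genes are also expressed by macrophages. Recruited monocyte and macrophage markers were higher in the same livers (114.5 to 282 CPM against 57.2 to 68.9). Kupffer cell markers overlapped (141 to 276 CPM against 165 to 235). The part of these cells was not tested. Mmp3 had the smallest p of this list between hAAM and vehicle livers, at -1.22 ± 0.58 (FDR 0.967).

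**Figure D5:**
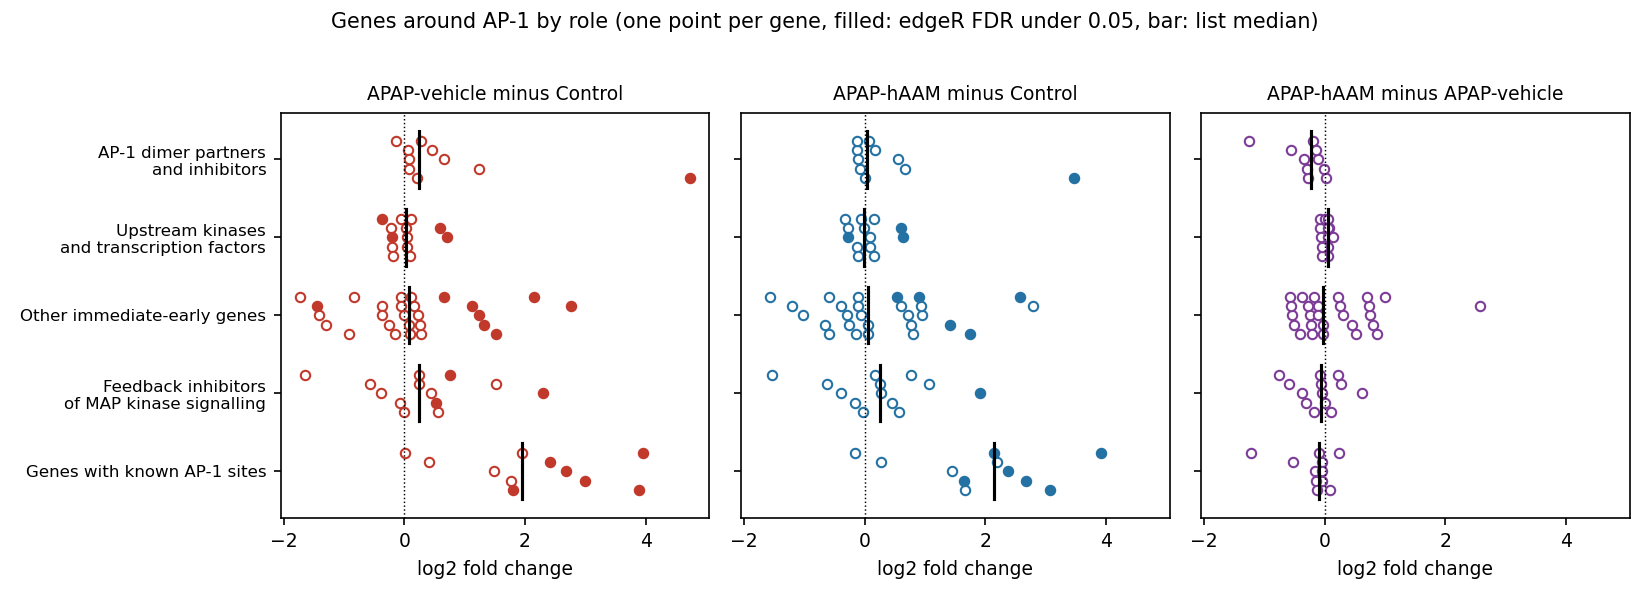
Log2 fold change of each of the 74 genes in the 5 lists for the 3 comparisons, filled where the edgeR FDR was under 0.05, with a bar at the list median. The genes with known AP-1 sites have medians of 1.96 and 2.15 against Control, the other 4 lists have medians between -0.01 and 0.25, and no point is filled between hAAM and vehicle. The lists were chosen with earlier results of these data known.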

How the data were processed

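Livers of 12 mice were grouped by their labels, and replicate numbers follow the titles. Libraries were made from rRNA-depleted total RNA with a directional kit, and the protocol names 14 libraries where 12 samples are listed. The authors trimmed reads with cutadapt 4.6, aligned them with STAR 2.7.1a to GRCm38 and deposited raw counts for 24187 Ensembl genes, the lowest of which sums to 15 over the 12 livers. The counting strand and mode are not given in the sources used here, so overlapping and antisense genes may have exchanged reads. Coordinates and exon lengths came from GENCODE on GRCm38, and promoters from RefSeq.

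Counts were filtered (filterByExpr by group), scaled with TMM and tested in edgeR 4.0.16 (R 4.3.3) with the two-sided quasi-likelihood test, one fit of 12 livers, and the Benjamini-Hochberg FDR over 22581 genes at a threshold of 0.05. The biological coefficient of variation was 0.214. Intervals used the fit's standard errors. DESeq2 1.42.0, the tool the authors used in version 1.38.3, was an alternative. The scripts were tested on simulated data. The 10 genes, the lists and the tests were chosen with earlier results of these data known. Beyond the 10, each list's 3 largest called changes with vehicle and its smallest p between treatments were named. Other genes were named after their values were seen. P-values set the differences between groups against the spread between these livers within groups. Nothing states that each liver came from a separate experiment.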

Additional observations from a re-analysis of the deposited data

Results flagged for a closer look

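In the 34 groups of 4 or 5 livers examined (the 10 genes and the AP-1 shares in each injured group), 2 values stood apart from the other livers of their group, and chance gives about 1 in 20 groups. hAAM replicate 3 had 22 CPM of Fosb, where the other 3 hAAM livers held 0.741 to 3.94 CPM, a gap of 0.85 of the whole range. The same liver had 33.4 CPM of Atf3, where the others held 8.76 to 11.8 CPM, a gap of 0.876 of the range. Without it Atf3 was still past the edgeR threshold against Control (log2 1.58, FDR 0.00683), and Fosb was not (1.77, FDR 0.167).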

How the results depend on the processing

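The cause of each change below was not tested. Depth limits Fosb and Fosl1, which had 8 to 64 and 0 to 6 counts in Control livers. Without TMM factors (library size as the only scaling), the middle log2 value of the genes tested moved from 0.01 to 0.36 with vehicle and from 0.02 to 0.32 with hAAMs against Control. The count of the 74 list genes called then rose to 37 and 28, Jun and Jund with vehicle turned to 0.20 and 0.31, and Jund with hAAMs to 0.077. DESeq2 called 6 of the 10 genes with hAAMs, and 4 without hAAM replicate 4 and vehicle replicate 3. Over all genes the edgeR counts of 6719 and 4666 calls became 4253 and 2959 with the replicate block, 9747 and 7340 with library size, and 2729 with hAAMs in a fit of those 2 groups alone. A minimum of 10 counts in every library left Fosb untested. Of the list genes it left out Fosl1, Egr3, Nr4a3, Arc, Dusp2, Timp1, Mmp3 and Mmp13. The replicate numbers did not pair the livers (correlations of -0.458 to 0.385 over 10 same-numbered pairs, 3 above 0.1). With the replicate number as a block (replicate block) 1 of the 10 genes was called with vehicle (Klf6) and 2 with hAAMs (Klf6 and Atf3), beside 18.8% and 13.1% of all genes. The vehicle values of Atf3 and Junb were then 1.59 (FDR 0.078) and -1.42 (FDR 0.147), Jun with vehicle was 0.20 and Ier3 with hAAMs 0.13. Without hAAM replicate 4 and vehicle replicate 3, Jund with vehicle was 0.026 and Egr1 -0.12 in edgeR, and 0.013 and -0.14 in DESeq2. Without Control replicate 1 and hAAM replicate 3 together, Jun with vehicle was 0.39 and Ier3 with hAAMs 2.58.

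When each liver was left out in turn, the count of the 10 genes called was 2 to 3 with vehicle (2 without vehicle replicate 1, 2, 4 or 5) and 2 to 4 with hAAMs (4 without hAAM replicate 2, where 13.1% of all genes were called), and that of the list genes 18 to 26 (24.3% to 35.1%) and 8 to 18 (10.8% to 24.3%). Of all genes 20.1% to 32% and 10.5% to 24.2% were called in these fits. The lowest of the last came without Control replicate 2 or 3 or hAAM replicate 1, where 15%, 10.5% and 12.5% of all genes and 10.8% of the list were called. With vehicle the log2 difference ranged from -0.41 to 0.38 for Jun, from -0.23 to 0.051 for Jund, from -0.16 to 0.66 for Egr1 and from -0.37 to 2.85 for Ier3. With hAAMs Ier3 ranged from -0.96 to 2.26, and Jund between hAAM and vehicle livers from -0.31 to 0.013. No gene of the 10 or of the lists was called between hAAM and vehicle livers under any of these settings in which it was tested. The Fosl2 calls with vehicle and with hAAMs were also lost with no filter (FDR 0.0501 and 0.05001), with library size (0.22 and 0.148), with the replicate block (0.0889 and 0.0895) and in fits of the 2 groups alone (0.082 and 0.12), and with the stricter filter the vehicle call was lost (0.0516) and the hAAM call kept (0.0497).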

Other observations

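Control replicate 1 had the highest value of the 12 livers for 13 of the 27 other immediate-early genes (48.1%, beside 15.4% of all genes). It had the lowest for 4 of them (14.8%, beside 16.4%). hAAM replicate 3 had the highest of the 12 for 5 of the 27 (18.5%, beside 9.83% of all genes). Among the 9 injured livers it was the highest for 11 (40.7%, beside 20.4%). The genes in this paragraph were chosen after their values were seen. In Control livers 1 to 3, Phlda1 measured 137, 47.8 and 38.0 CPM, Egr2 5.76, 0.393 and 0.198 CPM and Spry4 27.2, 8.79 and 10.8 CPM. In hAAM replicate 3, Ier2 measured 109 CPM and Nr4a1 117 CPM, where the other injured livers held 18.2 to 46.9 and 3.72 to 9.72 CPM. That liver had the lowest injured value of Mmp3 (0.252 CPM), Plau (3.85 CPM), Fosl1 (0.0775 CPM) and Dusp4 (3.66 CPM). It was the lowest injured liver for 6 of the 11 genes with known AP-1 sites (54.5%, beside 20.3% of all genes).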
